A study of Homo sapiens with 21 samples.

Results

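Open chromatin was examined at the genes that encode the subunits of the mammalian SWI/SNF remodellers BAF, PBAF and ncBAF. The members were 31 genes, and a site counted as theirs where the deposited annotation named one of them as its nearest gene. This gave 391 of the 367900 consensus sites, nearest to 30 of the 31 genes, since no site carried the name of BCL7C. Of these sites, 27 lay at a start site (annotated as promoter-TSS, or within 1000 bases of a transcription start site, TSS) and 364 were distal.

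The cells were SK-N-BE(2), an established neuroblastoma line, transduced with lentiviral short hairpin RNAs (shRNAs) and collected after 72 h. The 7 groups of 3 libraries were Control (in the study, a non-silencing shRNA), shARID1A.2 and shARID1A.4 against ARID1A, shARID1B.2 and shARID1B.3 against ARID1B, and the combinations shARID1A/B.2.3 and shARID1A/B.4.2 against both genes. Every group carries lentivirus, each single-gene group rests on 1 hairpin, and the degree of knockdown was not analysed here. ATAC-seq counts insertions of the Tn5 transposase, so a lower count can mean fewer cells with an open site or a less open site in each cell, and these cannot be told apart. Libraries held 16140029 to 44472230 reads in sites. Of the adrenergic neuroblastoma markers, PHOX2A (24 to 35.3 CPM over the group means, where CPM are counts scaled by library size with TMM factors), HAND2, GATA3, TH and DBH had an open start-site site, whereas ISL1 had none by name. Of the markers of other cell types, EPCAM had one (6.62 to 12 CPM) and PTPRC, PECAM1 and ALB had none.

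SWI/SNF remodellers use ATP to slide or eject nucleosomes. A core module with SMARCB1, SMARCC, SMARCD and SMARCE1 subunits joins an ATPase module built around SMARCA4 (BRG1) or SMARCA2 (BRM), and a few specific subunits set the variant. ARID1A and ARID1B are mutually exclusive paralogs that mark BAF, together with DPF1, DPF2 or DPF3. ARID2, PBRM1, BRD7 and PHF10 mark PBAF, and BRD9 with GLTSCR1 or GLTSCR1L marks ncBAF. The comparison asks whether the loci of the paralogs and partner subunits respond when ARID1A, ARID1B or both are silenced.

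The promoters of these genes are shown because their accessibility carries the results below. RefSeq promoter windows (GRCh38.p14, 250 bases before to 50 after a start) were found for 26 of the 31 members, 47 windows in all, and each matched the GRCh38 genome sequence. ARID2, ACTL6A, ACTB, SMARCC1 and SMARCC2 had no entry. The sequences below are the 250 bases before the start, 5′ to 3′ on the gene's strand, and capitals mark GGGCGG or its complement CCGCCC, the core of the GC box bound by Sp1-family factors. ARID1A and ARID1B are the silenced genes, SMARCA4 and BCL7A are members that rose, and the GLTSCR1L window is an alternative start that fell.
ARID1A (chr1:26695765-26696064, + strand): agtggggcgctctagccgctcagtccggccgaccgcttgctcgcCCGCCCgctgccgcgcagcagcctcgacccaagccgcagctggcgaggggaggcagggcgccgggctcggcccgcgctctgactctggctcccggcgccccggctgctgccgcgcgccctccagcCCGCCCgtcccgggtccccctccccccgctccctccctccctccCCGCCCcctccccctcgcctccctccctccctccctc
ARID1B (chr6:156777128-156777427, + strand): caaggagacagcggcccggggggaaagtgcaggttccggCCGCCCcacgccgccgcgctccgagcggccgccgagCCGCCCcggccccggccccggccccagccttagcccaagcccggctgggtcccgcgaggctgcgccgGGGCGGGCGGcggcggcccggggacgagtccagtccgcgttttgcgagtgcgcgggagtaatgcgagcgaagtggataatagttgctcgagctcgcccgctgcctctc
SMARCA4 (chr19:10960780-10961079, + strand): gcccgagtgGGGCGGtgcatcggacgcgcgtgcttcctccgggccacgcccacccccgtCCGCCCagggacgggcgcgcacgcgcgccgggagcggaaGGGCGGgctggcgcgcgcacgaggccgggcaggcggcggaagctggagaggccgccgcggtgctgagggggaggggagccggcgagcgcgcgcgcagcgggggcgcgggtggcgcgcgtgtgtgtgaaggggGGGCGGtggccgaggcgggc
BCL7A (chr12:122021634-122021933, + strand): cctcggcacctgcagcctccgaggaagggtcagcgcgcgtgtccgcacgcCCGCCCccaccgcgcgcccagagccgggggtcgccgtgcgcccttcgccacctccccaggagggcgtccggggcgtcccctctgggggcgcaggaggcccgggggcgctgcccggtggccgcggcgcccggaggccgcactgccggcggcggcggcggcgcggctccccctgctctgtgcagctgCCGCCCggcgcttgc
GLTSCR1L alternative start (chr6:42820806-42821105, + strand): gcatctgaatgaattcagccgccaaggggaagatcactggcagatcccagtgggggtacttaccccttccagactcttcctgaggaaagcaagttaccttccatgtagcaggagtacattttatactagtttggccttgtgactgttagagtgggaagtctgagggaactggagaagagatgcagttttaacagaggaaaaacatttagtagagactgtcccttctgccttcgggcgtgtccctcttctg

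The coordinates are those of the whole window of 300 bases. GGGCGG stood in 35 of the 47 member windows (74.5%) and in 45.0% of all 35116 RefSeq promoters. It was found 3 times in the ARID1A window, 4 times in that of ARID1B and 5 times in that of SMARCA4, where 4 lie in the printed bases, and not in the GLTSCR1L window that fell. These windows are examples, and other members went against such a pairing. The DPF2 window held no GGGCGG, yet its site rose after combined silencing (log2 change 0.55). The PHF10 window held 7, and its site did not pass the test (0.08). The median GC content of member windows was 67.0%, against 58.7% over all RefSeq promoters. The other motifs searched on both strands, none of which contains another, were CCAAT (29.8% of member windows, 34.6% of all), CACGTG (6.38% and 7.26%), TGANTCA (4.26% and 7.71%), TGACGTC (2.13% and 3.45%), CCGGAAG (6.38% and 10.3%), ATGGCGG (10.6% and 5.55%) and GCGCATG (0% and 4.43%). Windows of the same gene overlap in part, so these shares are a description.

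Start-site sites of the members rose more often than they fell after combined silencing. Averaged over both combinations, 17 of 27 rose, 2 fell and 8 were not called at an FDR under 0.01 in the edgeR quasi-likelihood test across all 357029 tested sites. Over all tested start-site sites of the genome, 30.9% rose and 4.12% fell. The members' sites were mostly strong: among start-site sites with a mean of at least 5 CPM, a background added after the data were seen, 17 of 24 members rose against 44.6% of all, and none fell against 2.68%. The median log2 change was 0.33 for the 27 member sites and 0.22 for all start-site sites. By role, 4 of 5 BAF-specific sites rose and 1 fell, 2 of 3 PBAF-specific sites rose, 2 of 3 ncBAF-specific sites rose and 1 fell, and 6 of 9 sites of the ATPase module and 3 of 7 of the core module rose.

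**Figure D1:**
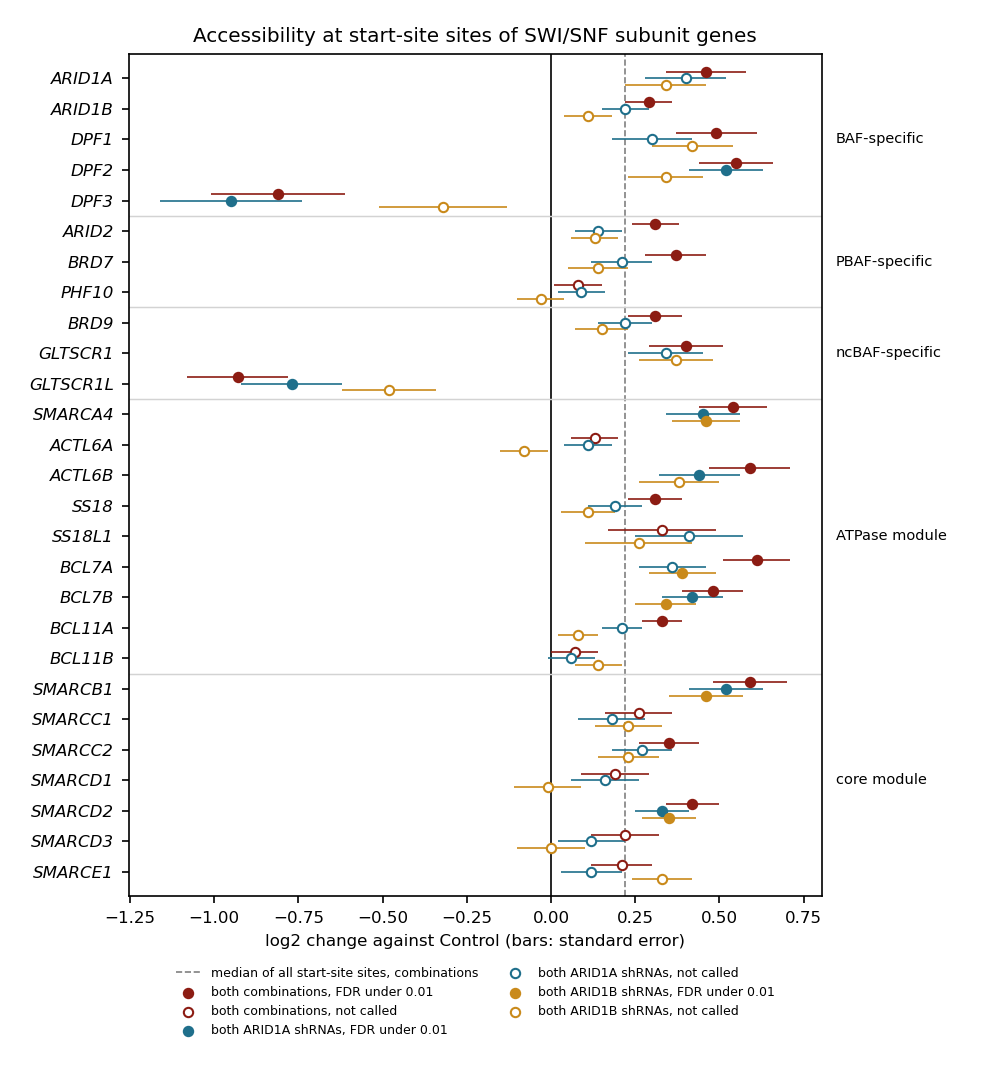
Log2 change against Control at the 27 start-site sites, 1 row per gene and grouped by role, after both combinations (red), both ARID1A shRNAs (blue) and both ARID1B shRNAs (yellow). Points are estimates, bars are standard errors, filled points passed an FDR under 0.01 and the dashed line is the median of all start-site sites (0.22); most member estimates lie right of 0, and DPF3 and GLTSCR1L lie left of it.

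These calls depend on the scaling, and some of them on single libraries. Reads in start-site sites made up 29.4% to 30.3% of each Control library and 34.1% to 36.8% of each combination library, so most start-site sites gained relative to the rest. When libraries were scaled on promoter-TSS sites only, the median log2 change of all sites moved from 0.03 to -0.20. In that scaling, 6 member start-site sites rose and 2 fell, against 7.51% and 10.8% of all start-site sites. Those that rose were DPF2, SMARCA4, ACTL6B, BCL7A, BCL7B and SMARCB1. Without Control replicate 2, whose start-site share of 29.4% was the lowest of all libraries, 9 rose, and the calls of ARID1A, ARID1B, DPF1, BRD7, BRD9, GLTSCR1, ACTL6B and SMARCC2 were lost.

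In the ATPase module, SMARCA4, which encodes the catalytic subunit BRG1, had a start-site site 29 bases upstream (chr19:10960122-10961818). It measured 11.3, 9.57 and 13.7 CPM in Control, 18.5, 15.1 and 18.5 with shARID1A/B.2.3 and 15.2, 16.4 and 17.5 with shARID1A/B.4.2, so that every combination library stood above every Control library. The log2 change was 0.54 (SE 0.10, edgeR FDR 2.09e-05), and it was 0.45 after ARID1A silencing (FDR 0.00115) and 0.46 after ARID1B silencing (FDR 0.00106). The alternative ATPase gene SMARCA2 had no site within 1000 bases. Its nearest site spanned a RefSeq start 1154 bases away by the annotation, was among the strongest of the members at 68.5 ± 4.14 CPM in Control (SD, n = 3), and had a log2 change of 0.12 (SE 0.07, FDR 0.236).

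BCL7A, a small accessory subunit, had the largest rise of the 27 start-site sites. It went from 15.7, 11.3 and 17 CPM in Control to 21.7, 14.7 and 20.8 with shARID1A/B.2.3 and to 26.4, 25 and 28.2 with shARID1A/B.4.2. The first combination overlapped Control and the second did not. The log2 change was 0.61 (SE 0.10, edgeR FDR 5.66e-07), and the combinations differed by -0.49 (shARID1A/B.2.3 against shARID1A/B.4.2, FDR 7.82e-04). Its paralog BCL7B rose by 0.48 on the log2 scale. The actin-related pair split, since ACTL6B, the neuronal form, rose by 0.59 (FDR 5.59e-05) from 6.41 ± 1.53 CPM (SD, n = 3), whereas ACTL6A, the form of proliferating cells, stood at 65.1 ± 4.71 CPM with a log2 change of 0.13 (FDR 0.219). SS18 rose by 0.31, a call lost without Control replicate 1 (FDR 0.0189) and with abundance-trended offsets, a scaling that varies with the mean level of a site (0.16, FDR 0.0591). The site named for SS18L1 had a value of 0.33 without passing the test (FDR 0.153), at 1.91 CPM in Control against 24.5 CPM for SS18, but the site over the RefSeq start of SS18L1 carries the name of PSMA7. That site stood at 15 ± 1.98 CPM in Control (SD, n = 3) and rose by 0.54 (FDR 6.03e-06). BCL11A had the highest start-site count level of all members, 109, 109 and 101 CPM in Control, over a site of 6184 bases. Per kilobase of site its mean Control level was 17.2 CPM, below the 47.7 of ACTL6A and the 20.2 of ARID2. It rose by 0.33 (SE 0.06, FDR 1.6e-05), to 117, 126 and 120 CPM with shARID1A/B.2.3 and 148, 144 and 153 with shARID1A/B.4.2. BCL11B had a log2 change of 0.07 (FDR 0.541). With the abundance-trended offsets ACTL6A and BCL11B were called lower, at -0.19 each.

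In the core module, SMARCB1 (log2 change 0.59, SE 0.11, edgeR FDR 9.65e-06), SMARCD2 (0.42, FDR 1.62e-05) and SMARCC2 (0.35, FDR 8.15e-04) rose. SMARCB1 measured 10.1, 6.66 and 9.38 CPM in Control and 13.4, 8.57 and 12.4 with shARID1A/B.2.3, which overlap, and 14.5, 15.5 and 15.2 with shARID1A/B.4.2, which do not. SMARCC1, SMARCD1, SMARCD3 and SMARCE1 had log2 changes of 0.26, 0.19, 0.22 and 0.21 and did not pass the test.

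The PBAF-defining ARID2 rose by 0.31 on the log2 scale (SE 0.07, edgeR FDR 1.44e-04). Its 3 Control libraries measured 79.5, 79.8 and 71.4 CPM, those with shARID1A/B.2.3 92.5, 95.9 and 90.4, and those with shARID1A/B.4.2 98, 97.6 and 98.6, with no overlap. It was also higher after combined than after single silencing (0.18, FDR 0.00333), as were BCL7A (0.24) and BCL11A (0.19), the 3 of 27 start-site sites called in that comparison, against 6.27% higher and 2.57% lower of all start-site sites. BRD7 rose by 0.37 and PHF10 did not pass the test (0.08, FDR 0.512). Under abundance-trended offsets the values of ARID2 and BCL11A turned to -0.05 and -0.1, with neither called. The ARID2 call was lost without Control replicate 3 (FDR 0.0127). Of the ncBAF genes, BRD9, whose site is annotated as the promoter of its neighbour TRIP13, rose by 0.31, a call lost with abundance-trended offsets (0.08, FDR 0.373). GLTSCR1 rose by 0.40, a call also lost without Control replicate 1 and without replicate 3 of either combination (FDR 0.0131, 0.0114 and 0.011).

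The 2 start-site sites that fell were weak. The GLTSCR1L site (chr6:42819734-42821351) is annotated as promoter-TSS of a transcript 10236 bases from the start used for the distance. It held 3.95, 3.37 and 3.49 CPM in Control, 1.51, 1.21 and 1.85 with shARID1A/B.2.3 and 2.6, 2.25 and 2.37 with shARID1A/B.4.2, with no overlap. The averaged fall was -0.93 on the log2 scale (SE 0.15, edgeR FDR 3.05e-07). The fall was larger with the former combination (difference -0.71, FDR 0.00756). The DPF3 site lay 239 bases from a start in an exon (chr14:72835807-72836681). It held 1.68, 1.4 and 2.08 CPM in Control, 0.788, 0.697 and 1.14 with shARID1A/B.2.3 and 1.52, 0.828 and 1.07 with shARID1A/B.4.2, so only the former was apart from Control. Its log2 change was -0.81 (SE 0.20, FDR 0.00102), and -0.65 without Control replicate 3, where the call was lost (FDR 0.0494).

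Nearest-gene names can miss a gene's main start, so the sites over the RefSeq windows were read as well, a step added after the data were seen. The 47 windows met 30 distinct sites, 23 named for the member and 7 for another gene, and 5 windows met none. Of the 30 sites, 18 rose and 1 fell, the GLTSCR1L site above, where 30.9% of all start-site sites rose and 4.12% fell. Apart from the GLTSCR1L site, all had a mean over 5 CPM in Control. Of all start-site sites with a mean of at least 5 CPM, 44.6% rose and 2.68% fell. The sites met by the windows of SMARCA2 and DPF1 are distal by the rule used above. DPF1, counted above as risen through a site with a log2 change of 0.49, had its RefSeq start at another site that was not called (0.15, FDR 0.405). The window of PBRM1 was met by a site named for GNL3, at 7.16 ± 0.785 CPM in Control (SD, n = 3), which rose by 0.47 (edgeR FDR 3.89e-04). The other windows of GLTSCR1L were met by sites named for TBCC (0.38) and FLJ38717 (0.58), which rose, so the fall at its alternative start was not shared by the others. The DPF3 windows were met by a site of 24.7 ± 0.334 CPM named for LOC102724054 that did not pass the test (0.10, FDR 0.452). BCL7C, which had no site by name, was met by a site named for MIR762 (0.25, FDR 0.0456, not called).

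The start-site sites of the paralogs ARID1A and ARID1B both rose after combined silencing, and the calls at their distal sites were few and not alike. All 4 ARID1A sites had a higher mean in every silenced group than in Control, and 3 of them rose after combined silencing. At ARID1B, 12 sites were tested, of which the start-site site and 1 at 90557 bases upstream rose and those at 159414 and 191827 bases upstream fell. Of all tested start-site sites 30.9% rose, and of all distal sites 1.86% rose and 10.6% fell. No ARID1A site lay beyond 59176 bases, so the far ARID1B sites have no counterpart there. With so few sites the counts are a description. The genes encode the DNA-binding subunits that alternate in BAF.

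At ARID1A, the start-site site (chr1:26695337-26696256, 235 bases upstream) had a log2 change of 0.46 (edgeR FDR 0.0014) after combined, 0.40 (FDR 0.0141) after ARID1A and 0.34 (FDR 0.0497) after ARID1B silencing. Control libraries ranged from 5.14 to 7.99 CPM and silenced libraries from 6.72 to 10.5, which overlap. A site 3186 bases upstream, in an exon of LOC101928728, rose by 0.45, 0.53 and 0.45 in the same order of comparisons (FDR 6.21e-04, 1.23e-04 and 0.00212), and the first of these calls was lost without Control replicate 2 (FDR 0.0512). An intergenic site 59176 bases upstream (chr1:26636461-26637249) measured 3.27, 2.3 and 3.77 CPM in Control and 3.86 to 7.1 CPM in the 18 silenced libraries, with no overlap. It rose by 0.70 (SE 0.14, FDR 4.1e-05) after combined silencing, by 0.91 (SE 0.14, FDR 4.36e-07) after ARID1A silencing and by 0.64 (SE 0.14, FDR 7.1e-04) after silencing of the paralog ARID1B, and the difference between the last 2 was 0.27 (FDR 0.121). Of the ARID1A sites that rose after combined silencing, this was the 1 that kept its call with promoter-TSS scaling, where the other two had FDRs of 0.0834 and 0.0697.

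At ARID1B, the start-site site (chr6:156776532-156780619, 729 bases downstream, in an exon) measured 42.6, 37.3 and 42.3 CPM in Control, 49.3, 45.6 and 48.7 with shARID1A/B.2.3 and 51.8, 50.7 and 53.8 with shARID1A/B.4.2, with no overlap. It rose by 0.29 (SE 0.07, edgeR FDR 0.00137), a call lost with abundance-trended offsets (0.05, FDR 0.618) and with promoter-TSS scaling (0.06, FDR 0.507). Its log2 change was 0.22 (SE 0.07, FDR 0.0386) after ARID1A silencing and 0.11 (SE 0.07, FDR 0.436) after ARID1B silencing, and neither passed the threshold.

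Upstream of ARID1B, 2 intergenic sites behaved differently between the shRNAs against ARID1B. Their central 300 bases are given in genome orientation, with any of the 8 motifs in capitals.
ARID1B, 159414 bases upstream (chr6:156618283-156618582): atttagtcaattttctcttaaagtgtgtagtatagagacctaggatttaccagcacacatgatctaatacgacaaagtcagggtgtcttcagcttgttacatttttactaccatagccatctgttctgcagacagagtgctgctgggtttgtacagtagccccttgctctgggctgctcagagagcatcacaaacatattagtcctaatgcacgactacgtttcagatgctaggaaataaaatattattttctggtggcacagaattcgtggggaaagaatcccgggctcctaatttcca
ARID1B, 191827 bases upstream (chr6:156585870-156586169): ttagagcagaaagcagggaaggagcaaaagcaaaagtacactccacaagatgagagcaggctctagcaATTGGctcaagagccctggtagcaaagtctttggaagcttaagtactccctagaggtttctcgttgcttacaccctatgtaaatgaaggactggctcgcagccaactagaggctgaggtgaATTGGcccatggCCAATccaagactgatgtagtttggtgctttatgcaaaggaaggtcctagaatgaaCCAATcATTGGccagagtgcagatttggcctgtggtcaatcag

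The first held none of the motifs, and the second held CCAAT or its complement ATTGG 5 times. At least 5 matches were found in 890 of 337751 distal windows (0.264%), and in 12 of the 35815 that fell after combined silencing (0.0335%). The threshold of 5 is the count at this site, so these shares are a description.

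The site at 159414 bases (chr6:156617522-156619343) fell by 0.95 on the log2 scale after combined silencing (SE 0.11, edgeR FDR 1.24e-11). Control libraries measured 7.84, 7.15 and 7.86 CPM, shARID1A/B.2.3 4.73, 3.81 and 4.13, and shARID1A/B.4.2 3.54, 3.73 and 3.76, with no overlap. It fell with shARID1A.2 (-0.61), shARID1A.4 (-0.87) and shARID1B.2 (-1.04, from 2.98 to 4.14 CPM in the libraries), but shARID1B.3 measured 7.4, 8.29 and 7.86 CPM, within and above the Control range. The shRNAs against ARID1B differed by 1.08 (SE 0.13, FDR 3.45e-10).

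The site at 191827 bases (chr6:156585723-156586315) was weaker, at 1.92, 2.3 and 1.8 CPM in Control, or 40, 56 and 45 reads. With shARID1B.3 it rose to 5.66, 6.62 and 5 CPM (log2 change 1.53, SE 0.16, edgeR FDR 4.03e-13), the highest of all groups. It fell with shARID1A.2 (-0.92, FDR 0.00185), shARID1A.4 (-0.97, FDR 0.00154) and shARID1A/B.4.2 (-1.34, FDR 5.36e-06), and shARID1B.2 had a value of -0.80 (FDR 0.0164). With shARID1A/B.2.3 it measured 2.1, 1.67 and 2.33 CPM, which overlaps Control. The shRNAs against ARID1B differed by 2.33 (SE 0.18, FDR 1.79e-18), and the combinations by 1.32 (SE 0.23, FDR 8.77e-06). The averaged fall of 0.68 after combined silencing (FDR 0.00316) thus covers groups that differ, and it lost its call without Control replicate 2 (FDR 0.048), without shARID1A/B.4.2 replicate 1 (0.0172) and under DESeq2 (adjusted p 0.015). The site at 90557 bases rose by 0.30 (FDR 0.00214) from 27.1, 26.3 and 26.5 CPM, and this call was lost without any 1 of the Control libraries (FDR 0.0103 to 0.0165). Its value was 0.14 with abundance-trended offsets (FDR 0.111) and 0.07 with promoter-TSS scaling (FDR 0.527).

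**Figure D2:**
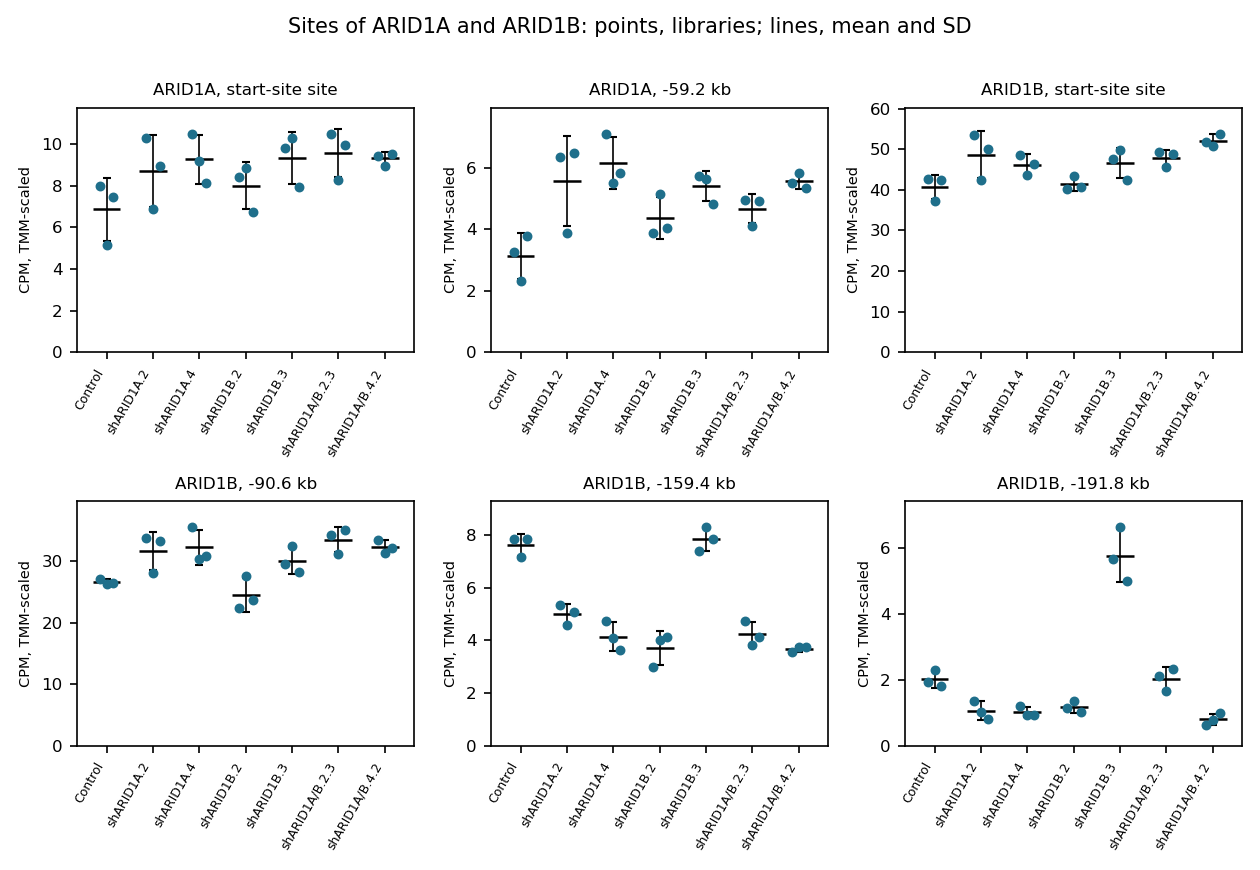
CPM in every library at 6 sites: the ARID1A start-site site and its site 59176 bases upstream, the ARID1B start-site site, and the ARID1B sites 90557, 159414 and 191827 bases upstream (panel labels in kb). Points are libraries, lines the mean and SD of 3, and axes start at 0; shARID1B.3 stands at the Control level in the panel of the site at 159414 bases and above all other groups in that at 191827 bases.

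Distal sites of the members fell more often than they rose. After combined silencing 41 of 350 tested distal sites fell and 8 rose, or 11.7% and 2.29%, close to the 10.6% and 1.86% of all tested distal sites. The median log2 change was -0.01, against 0.02 over all distal sites. Of the 41, 20 were intronic and 21 intergenic, 27 lay within 100000 bases of the TSS, and their log2 changes ranged from -2.21 to -0.31. They were spread over 11 of the 27 members with a tested distal site. The sites that fell had a median of 5.6 CPM in Control, against 1.08 CPM at the sites that were not called, so the calls favour sites with more reads.

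The falls were unevenly spread over the loci. SS18 had 6 of 11 distal sites lower (median log2 change -0.90), DPF3 8 of 18 (-0.46), BRD7 6 of 22 (0.01), BCL11A 4 of 17 (0.17) and BCL11B 9 of 80 (-0.08). At SMARCA2, the locus with the most sites, 2 of 122 fell and 1 rose (median 0.04), or 1.64% lower. ARID1B had 2 of 11 lower, and ACTL6A, GLTSCR1, SS18L1 and SMARCB1 had 1 each. The sites that rose were near ARID1A (2), ARID1B, ARID2, BCL11A, DPF1, GLTSCR1 and SMARCA2 (1 each). Of the members with a fallen distal site, 6 had a start-site site that rose. Sites of a locus share a neighbourhood and are not independent, and the counts are a description.

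**Figure D3:**
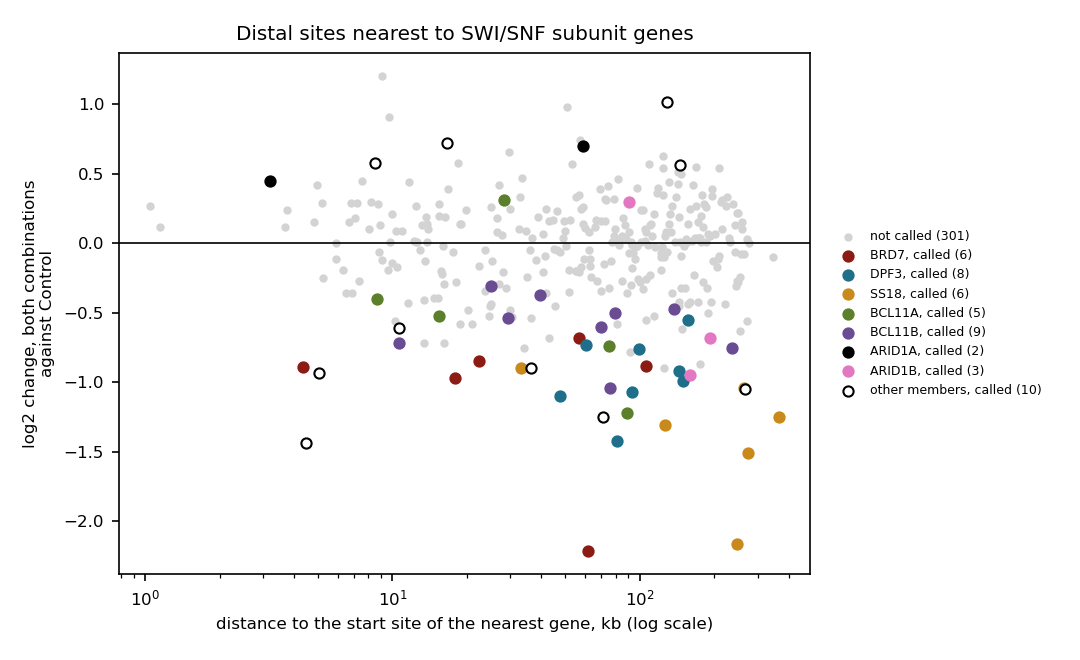
Log2 change after combined silencing (y axis) at the 350 tested distal sites against the distance to the start site of the nearest member gene in kb (x axis, log scale). Coloured points are called sites of the genes named in the key, open points are called sites of other members and grey points are sites not called; most called sites lie below 0, near and far from the start, with the BRD7 site at -2.21 lowest.

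The central 300 bases of 4 of the distal sites with the smallest p are shown because their falls are described next, again in genome orientation and with motifs in capitals. They hold few of the motifs: 1 GGGCGG match near BRD7, 1 CACGTG and 1 CCAAT near DPF3, and none near SS18 and BCL11A.
BRD7, 61553 bases upstream (chr16:50430238-50430537): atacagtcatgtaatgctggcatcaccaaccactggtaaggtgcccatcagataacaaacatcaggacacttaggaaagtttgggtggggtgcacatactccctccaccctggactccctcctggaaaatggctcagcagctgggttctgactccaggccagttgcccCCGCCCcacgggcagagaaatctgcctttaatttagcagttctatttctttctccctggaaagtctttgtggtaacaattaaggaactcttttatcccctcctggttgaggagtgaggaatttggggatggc
SS18, 247714 bases downstream (chr18:25842746-25843045): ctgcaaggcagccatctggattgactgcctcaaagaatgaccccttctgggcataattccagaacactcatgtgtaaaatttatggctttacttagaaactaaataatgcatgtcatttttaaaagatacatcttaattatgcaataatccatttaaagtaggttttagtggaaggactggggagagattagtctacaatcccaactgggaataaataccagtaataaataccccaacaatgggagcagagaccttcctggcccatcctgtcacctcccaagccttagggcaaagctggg
BCL11A, 89199 bases upstream (chr2:60642548-60642847): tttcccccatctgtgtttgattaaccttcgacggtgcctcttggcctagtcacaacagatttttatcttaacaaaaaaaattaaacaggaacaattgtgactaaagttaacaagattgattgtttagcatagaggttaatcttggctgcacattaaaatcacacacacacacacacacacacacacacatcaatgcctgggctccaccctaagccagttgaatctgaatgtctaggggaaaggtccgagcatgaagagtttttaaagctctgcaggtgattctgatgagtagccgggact
DPF3, 47496 bases downstream, intron (chr14:72788838-72789137): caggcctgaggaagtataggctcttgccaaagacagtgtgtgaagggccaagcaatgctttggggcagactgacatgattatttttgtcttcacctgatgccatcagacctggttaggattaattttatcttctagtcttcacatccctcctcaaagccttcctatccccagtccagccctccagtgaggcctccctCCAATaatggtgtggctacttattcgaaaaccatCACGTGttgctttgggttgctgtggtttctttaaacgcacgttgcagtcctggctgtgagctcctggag

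Over the member distal windows TGANTCA, the AP-1 core, stood in 9.71% of 350, against 11.2% of all distal windows, and in 4 of the 41 that fell (9.76%), against 14.3% of the 35815 distal sites of the genome that fell. GGGCGG stood in 7 of the 41 (17.1%) and in 10.4% of the 309 other member windows. The median GC content was 49.0% in the 41 and 50.7% in the others.

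The largest fall was 61553 bases upstream of BRD7, a bromodomain subunit of PBAF (chr16:50429752-50431022). Control libraries measured 9.96, 7.36 and 9.1 CPM, shARID1A/B.2.3 1.61, 1.65 and 1.76, and shARID1A/B.4.2 2.55, 2.16 and 1.76. The log2 change was -2.21 (SE 0.12, edgeR FDR 4.69e-28), and it was -1.78 (SE 0.12, FDR 3.28e-21) after ARID1A and -1.33 (SE 0.11, FDR 1.65e-16) after ARID1B silencing. All 6 silenced groups fell, by 0.68 with shARID1B.2 (5.68, 5.36 and 5.34 CPM) up to 2.40 with shARID1A/B.2.3. The shRNAs of each gene differed here, with falls of 1.98 for shARID1B.3 (1.76, 2.61 and 2.27 CPM), 1.41 for shARID1A.2 and 2.15 for shARID1A.4. No silenced library reached the lowest Control library. Another 5 sites upstream of BRD7, from 4337 to 105745 bases away, fell by 0.68 to 0.97, while its start-site site rose by 0.37.

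The SS18 site lay 247714 bases downstream of the start (chr18:25842651-25843140) and was weak, with 44, 52 and 52 reads in Control, or 2.12, 2.14 and 2.08 CPM. It fell to 0.427, 0.325 and 0.264 CPM with shARID1A/B.2.3 and 0.627, 0.69 and 0.603 with shARID1A/B.4.2, and neither combination came near Control. The averaged change was -2.16 on the log2 scale (SE 0.21, edgeR FDR 9.38e-15). ARID1A silencing gave -1.52 (FDR 5.55e-09) and ARID1B silencing -0.63 (FDR 0.013, not called), with a difference of -0.89 (FDR 2.25e-04). SS18 encodes an ATPase-module subunit best known from its fusion in synovial sarcoma.

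BCL11A and BCL11B are zinc-finger transcription factors that also join neural and lymphoid BAF. The BCL11A site 89199 bases upstream (chr2:60641737-60643658) measured 17.4, 14.3 and 15.9 CPM in Control, 5.81, 6.99 and 6.42 with shARID1A/B.2.3 and 7.17, 7.18 and 7.14 with shARID1A/B.4.2. It fell by 1.22 (SE 0.09, edgeR FDR 2.1e-20), by 0.83 after ARID1B and by 0.42 after ARID1A silencing, a difference of 0.41 (FDR 5.98e-05). Here the ARID1B shRNAs gave the larger averaged fall, the opposite order to that of the averages at the SS18 and BRD7 sites, and at the BRD7 site shARID1B.3 alone fell more than shARID1A.2. The site 15489 bases upstream, with 31.5, 34 and 30.6 CPM in Control, fell by 0.52 after combined and by 0.32 after ARID1B silencing, and had a value of 0.01 after ARID1A silencing (FDR 0.972). The site 75452 bases upstream fell by 0.74 after combined silencing, yet measured 11.8, 11.4 and 11.9 CPM with shARID1B.3 against 8.04, 10.2 and 9.38 in Control (0.34, not called). In BCL11B, an intronic site 75647 bases downstream fell by 1.04 (FDR 2.93e-11).

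**Figure D4:**
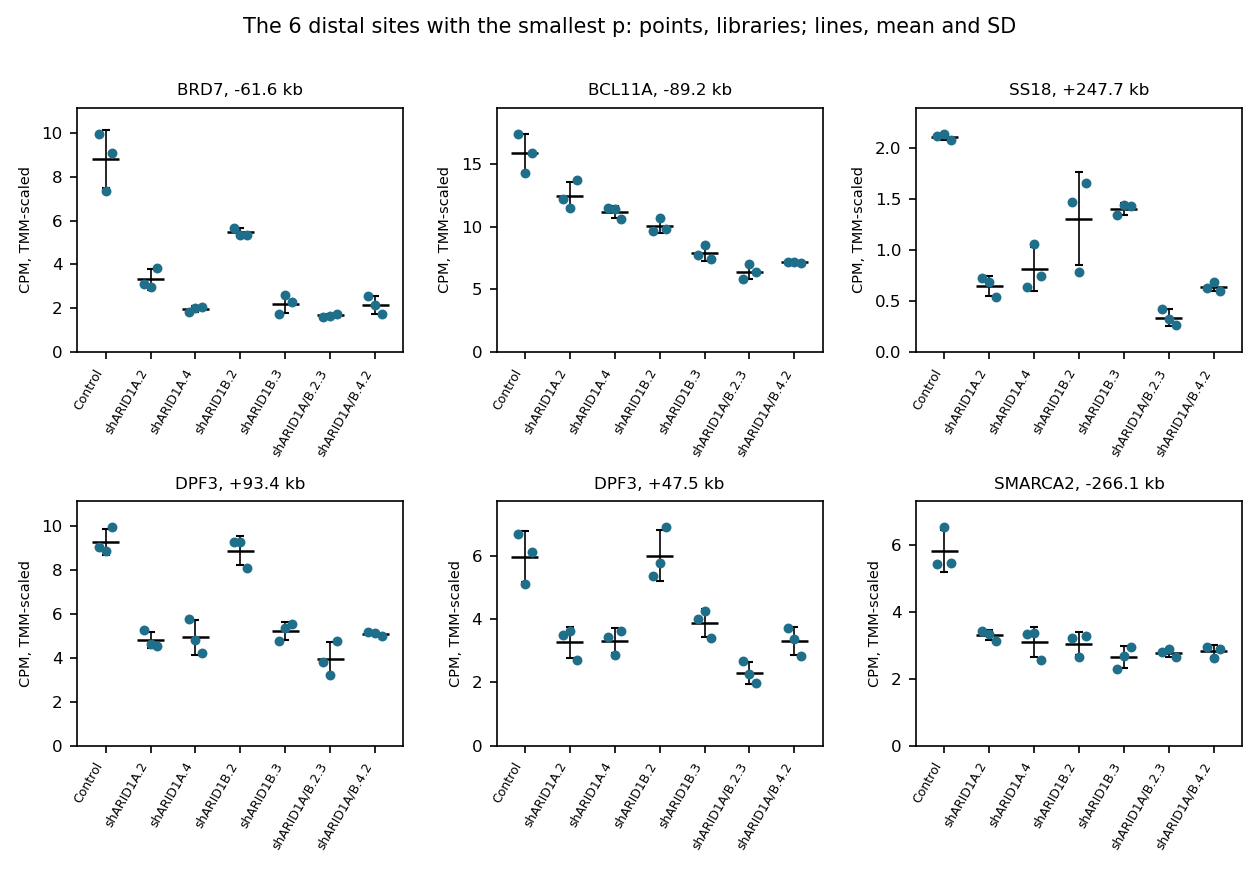
CPM in every library at the 6 distal sites with the smallest p after combined silencing, near BRD7, BCL11A, SS18, DPF3 (2 introns) and SMARCA2; panel titles give the distance to the start in kb. Points are libraries, lines the mean and SD of 3, and axes start at 0; all combination libraries lie below all Control libraries in each panel, and shARID1B.2 lies at the Control level at both DPF3 sites.

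DPF3 encodes a histone-reading BAF subunit of muscle and neurons, and all its fallen distal sites were intronic. The site 93421 bases downstream fell from 9.05, 8.84 and 9.94 CPM in Control to 3.81, 3.21 and 4.75 with shARID1A/B.2.3 and 5.15, 5.11 and 5.01 with shARID1A/B.4.2 (log2 change -1.07, SE 0.11, edgeR FDR 2.97e-14). The site at 47496 bases fell by 1.10 (FDR 4.54e-12), that at 98960 bases by 0.76 (FDR 1.85e-11) and that at 60861 bases by 0.73 (FDR 3.35e-05). The fall was larger after ARID1A than after ARID1B silencing at 3 of these 4, with differences of -0.47, -0.57 and -0.64 (FDR 1.06e-04, 4.37e-05 and 5.28e-05). At these 4 sites shARID1B.2 had values of -0.07 to 0.17, and none passed the test. The averaged differences therefore combine unlike ARID1B shRNAs. With shARID1B.3 the site at 93421 bases measured 4.77, 5.34 and 5.55 CPM, which overlaps the 5.25, 4.63 and 4.54 CPM of shARID1A.2. At 47496 bases shARID1B.3 measured 3.99, 4.26 and 3.4 CPM and shARID1A.2 3.49, 3.61 and 2.7 CPM, which also overlap.

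Of the ATPase module, an intergenic site 266139 bases upstream of SMARCA2 fell from 5.44, 6.53 and 5.45 CPM in Control to 2.64 to 2.96 CPM in the combination libraries (log2 change -1.05, SE 0.12, edgeR FDR 7.41e-12). It fell in all 6 silenced groups, and the combinations did not pass the test against the single-shRNA groups (-0.11, FDR 0.54). An intronic SMARCA2 site 70894 bases downstream fell by 1.25, by 1.37 after ARID1B silencing, and had a value of -0.61 after ARID1A silencing (FDR 0.015), a difference of 0.77 (FDR 0.00123). Upstream of ACTL6A, a site 36170 bases away fell from 7.51, 7.36 and 8.1 CPM to between 3.73 and 4.48 CPM (-0.90, FDR 1.86e-11), and all 6 silenced groups were called.

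**Figure D5:**
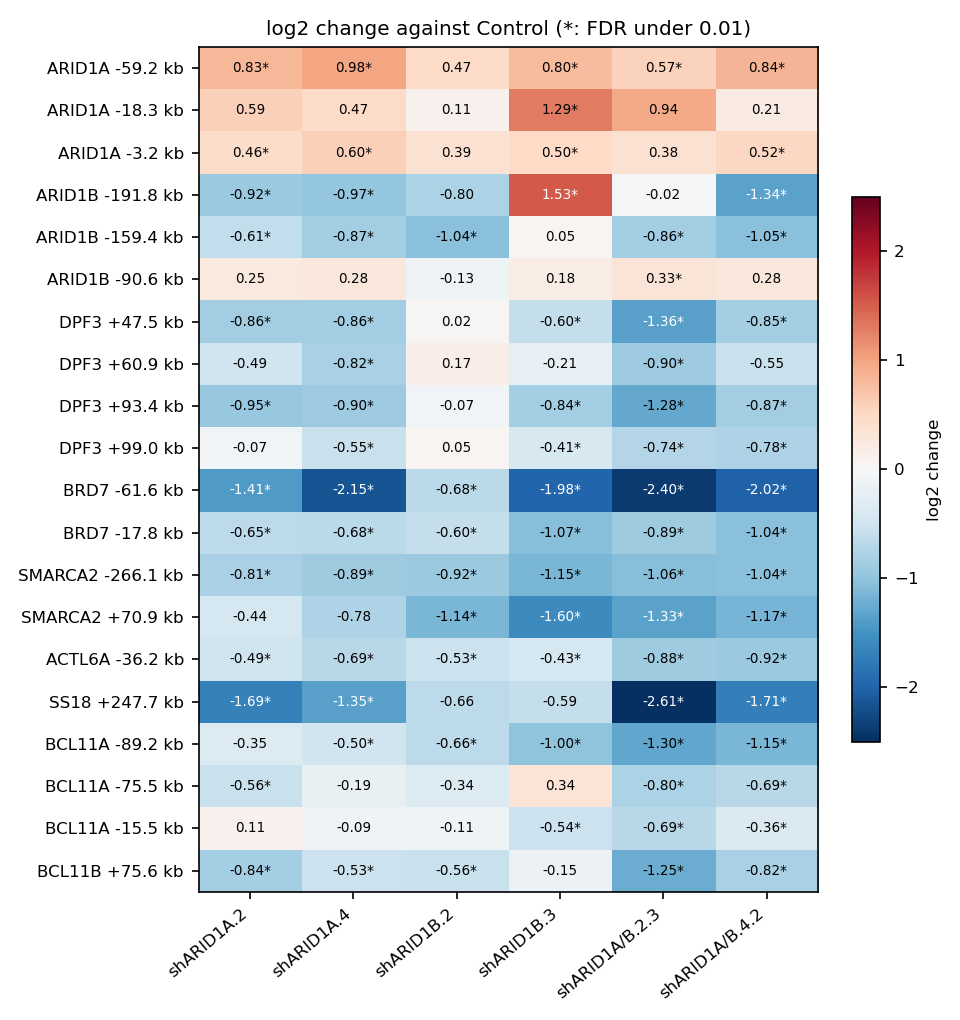
Log2 change against Control at the 20 named distal sites (rows, with gene and distance to its start in kb) in each of the 6 silenced groups (columns), with red for higher and blue for lower and an asterisk for an FDR under 0.01. The BRD7 row at the site 61553 bases upstream is called lower in every column, the 3 ARID1A rows are positive throughout, and the ARID1B row at 191827 bases runs from -1.34 to 1.53.

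Silencing of a single gene gave fewer calls of the same kind. ARID1A silencing raised 6 start-site sites and lowered 2 (16.2% and 1.97% of all start-site sites), and it raised 3 and lowered 25 distal sites (0.841% and 5.57% of all distal sites). In the edgeR fit of all groups with TMM scaling, ARID1B silencing raised 5 start-site sites and lowered none (8.14% and 1.32%). It raised 5 and lowered 20 distal sites (1.01% and 3.66%). DESeq2 also lowered no start-site site, and 1 had a negative value at an unadjusted p under 0.05 in edgeR. Abundance-trended offsets and promoter-TSS scaling each called 1 start-site site lower (3.23% and 4.78% of all). The start-site sites of SMARCA4, BCL7B, SMARCB1 and SMARCD2 rose in both. Of the 41 distal sites that fell after combined silencing, 13 fell after each single silencing, 12 after that of ARID1A only, 6 after that of ARID1B only and 10 after neither. These comparisons share the Control libraries.

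The genes were compared directly, and no start-site site of a member was called between ARID1A and ARID1B silencing in the edgeR fit of all groups (0 of 27, against 2.94% higher and 2.11% lower of all). DESeq2 also called none. Other edgeR fits called 1 or 2: promoter-TSS scaling gave 2 lower, abundance-trended offsets and the fit of only the compared groups 1 lower each, and the replicate block and total counts 1 higher each. In the fit of all groups with TMM scaling, 8 had an unadjusted p under 0.05. At distal sites, 17 were lower and 4 higher after ARID1A silencing (3.78% and 0.941% of all distal sites). Combined silencing lowered 23 distal sites below the single-shRNA groups and raised 1 (7.09% and 0.666%). The lowest p of these were at the BCL11A sites 89199, 75452 and 15489 bases upstream (-0.60, -0.55 and -0.36), the DPF3 site at 98960 bases (-0.51) and the BRD7 site at 61553 bases (-0.65).

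The shRNAs of a gene did not give the same calls. Against Control, shARID1B.2 raised no member site and lowered 12 distal sites (1.25% and 1.89% of all distal sites), whereas shARID1B.3 raised 8 start-site and 11 distal sites and lowered 1 and 22 (14.6%, 2.46%, 1.98% and 5.05% of all in the same order). Of all start-site sites, shARID1B.2 raised 2.81% and lowered 0.866%. With shARID1B.2, 12 start-site sites had an unadjusted p under 0.05, and DESeq2 called no start-site site and raised no distal site. Other edgeR fits called a few sites with this shRNA. Abundance-trended offsets and total counts raised 2 start-site sites each (3.78% and 4.52% of all). The replicate block, no count filter and only the compared groups raised 1 each (4%, 3.58% and 3.66%). Abundance-trended offsets, total counts and promoter-TSS scaling lowered 1 each (2.16%, 1.18% and 2.41%). Abundance-trended offsets and the replicate block raised 1 distal site each (1.42% and 1.39%). For ARID1A, shARID1A.2 raised 4 and lowered 2 start-site sites (5.94% and 1.85% of all) and raised 3 and lowered 21 distal sites (0.542% and 4.7%). With shARID1A.4 the counts were 5 and 1 at start sites (19% and 1.36%) and 4 and 23 at distal sites (1.32% and 4.33%). With shARID1A/B.2.3, 7 start-site sites rose and 2 fell (13.5% and 5.06%), and 10 distal sites rose and 42 fell (2.24% and 10.7%). With shARID1A/B.4.2, 17 start-site sites rose and none fell (38.5% and 2.4%; 2 had a negative value at an unadjusted p under 0.05), and 7 distal sites rose and 30 fell (2% and 7.66%). Both combinations lowered 26 distal sites and raised 6 start-site sites. With promoter-TSS scaling the counts of shARID1A/B.4.2 were 3 higher and 3 lower at start sites (8.03% and 9.82% of all). At distal sites they were 1 higher and 63 lower (0.399% and 15.4% of all). Those of shARID1A/B.2.3 were 3 and 3 at start sites (6.23% and 9.75%) and 2 and 55 at distal sites (0.804% and 13%).

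In direct comparisons, added after the data were seen, 26 member sites differed between shARID1B.3 and shARID1B.2. With shARID1B.3, 3 start-site sites were higher and none lower (5.16% and 2.17% of all), and 10 distal sites were higher and 13 lower (2.84% and 4.37%). Between shARID1A.2 and shARID1A.4, 10 sites differed. With shARID1A.2, 1 start-site site was lower and none higher (3.6% and 0.316%), and 3 distal sites were higher and 6 lower (0.761% and 1.74%). Between the combinations, 16 sites differed. With shARID1A/B.2.3, 4 start-site sites were lower and none higher (14.4% and 0.763%), and 3 distal sites were higher and 9 lower (1.47% and 3.18%). This direction turned with the scaling. Promoter-TSS scaling gave 1 start-site site higher and 1 lower (3.92% and 5.25% of all) and 15 distal sites higher and 4 lower (3.28% and 1.61%). Total counts gave 1 and 1 (1.82% and 10.3%) and 9 and 7 (2.36% and 2.37%). Abundance-trended offsets gave 1 and 1 (4.62% and 5.93%) and 8 and 5 (1.89% and 2.56%). DESeq2 called no start-site site in the directions given as none, and 2, 0 and 1 of them had an unadjusted p under 0.05 in these directions, in the order of the comparisons. At a site 50561 bases from the start of DPF1, which lies in an intron of SIPA1L3 and was singled out after its values were seen, the combinations moved in opposite directions, by -0.73 and 0.70 against Control. Mean levels there were 2.52 CPM in Control, 2.2 with shARID1A.2, 1.94 with shARID1B.3 and 1.58 with shARID1A/B.2.3, against 3.69 with shARID1A.4, 3.91 with shARID1B.2 and 4.06 with shARID1A/B.4.2. BCL11B at its start stood at 42.1 CPM with shARID1A.2 and 43.9 with shARID1A/B.2.3, against 55.9 with shARID1A.4 and 54.3 with shARID1A/B.4.2 (differences -0.41, FDR 2.05e-04, and -0.30, FDR 0.00591). Whether unequal knockdown or other transcripts play a part was not tested.

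As a list to read the members against, 20 genes of other remodellers (ISWI, CHD and INO80 families) were taken. Of their 16 tested start-site sites 9 rose (56.2%) and none fell after combined silencing, with a median log2 change of 0.25. The share that rose was 63% for the SWI/SNF start-site sites, 30.9% for all start-site sites and 44.6% for those of at least 5 CPM. Of 205 distal sites of the list 3 rose and 17 fell (1.46% and 8.29%), against 1.86% and 10.6% of all distal sites. The median of the SWI/SNF start-site sites was 0.33.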

How the data were processed

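ATAC-seq of SK-N-BE(2) cells gave 21 libraries in 7 groups of 3. The authors deposited, for each silenced group, a table of counts of reads per consensus site on hg38 (GRCh38), with nearest-gene annotation, next to normalised counts and fold changes and p-values of their own comparisons, which were not used. The Control columns were identical in the 6 tables and were read once. Which aligner and peak caller made them is not given in the sources used here. That replicates are separate cultures is not stated, so p-values measure the spread between these libraries.

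From the deposited counts, all 21 libraries were fitted in 1 model with edgeR 4.0.16 (quasi-likelihood test, TMM scaling, R 4.3.3). Sites were kept by filterByExpr with a minimum count of 10, which left 357029 and removed 10871. P-values were adjusted by Benjamini-Hochberg over all of them, and a site was called at an FDR under 0.01. The SE is the absolute log2 change divided by the square root of F. CPM are counts scaled by library size with TMM factors. TMM centres the bulk of the sites on no change, which bears on the start-site results. Fits that left out 1 library kept the dispersion trend of the full fit. The code was tested on simulated data.

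Named sites were the strongest start-site site of each member, every called site of ARID1A and ARID1B, the 10 called distal sites of at least 1 CPM with the smallest p in the combined comparison, and the 5 with the smallest p in each of the 4 other averaged comparisons. Members, lists and rules were chosen with earlier results of these data known. Alternatives were DESeq2 1.42.0, other scalings, filters, thresholds and site definitions, a replicate block and leaving out each library. Sequences came from the hg38 genome and RefSeq.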

Additional observations from a re-analysis of the deposited data

Results flagged for a closer look

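Sites are listed here because a direct comparison of 2 silenced conditions passed an FDR under 0.01 in edgeR, and each value is a difference of log2 levels.

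Between both ARID1A shRNAs and both ARID1B shRNAs (ARID1A minus ARID1B), ARID1B differed by -1.31 at 191827 bases upstream and by 0.24 at 90557 bases upstream. DPF3 differed by -0.57, -0.64 and -0.47 at 47496, 60861 and 93421 bases downstream. BCL11A differed by 0.33, 0.41 and -0.38 at 15489, 89199 and 75452 bases upstream, so its upstream sites did not share a direction. SS18 differed by -0.89 at 247714 bases, BRD7 by -0.45 at 61553 bases and SMARCA2 by 0.77 at 70894 bases.

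Between shARID1B.3 and shARID1B.2, ARID1B differed by 2.33 and 1.08 at 191827 and 159414 bases upstream, and ARID1A by 1.18 at 18340 bases upstream, a site of 0.653 CPM in Control. BRD7 differed by -1.29 at 61553 bases upstream and by 0.42 at its start. DPF3 differed by -0.77, -0.47 and -0.61 at 93421, 98960 and 47496 bases, and BCL11A by 0.69 and -0.43 at 75452 and 15489 bases upstream. The start-site sites of PHF10 and DPF2 each differed by 0.45.

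Between shARID1A.2 and shARID1A.4, the BCL11B start-site site differed by -0.41, the DPF3 site at 98960 bases by 0.48 and the BRD7 site at 61553 bases by 0.75. Between shARID1A/B.2.3 and shARID1A/B.4.2, the ARID1B site at 191827 bases differed by 1.32, the BCL11A site at 15489 bases by -0.33, and the start-site sites of BCL7A, BCL11A, BCL11B and GLTSCR1L by -0.49, -0.29, -0.30 and -0.71. The part that the degree of knockdown plays was not tested.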

How the results depend on the processing

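The named sites kept their direction and their side of the threshold with total-count scaling, without the count filter, with only the compared groups in the fit and with the replicate block (62 of 62 each). Most same-numbered replicates did not deviate together, with 4 of 63 pairs at a correlation over 0.1. The highest was 0.305, between replicate 2 of Control and replicate 2 of shARID1A/B.2.3. Control replicate 2 is also the library without which the fewest start-site sites were called higher after combined silencing (9). The replicate block gave 17 start-site sites higher and 2 lower (34.9% and 4.31% of all) and 9 distal sites higher and 42 lower (2.08% and 10.8%). Under DESeq2, 60 of 62 kept their call, and the sites of GLTSCR1 (adjusted p 0.0104) and ARID1B at 191827 bases (0.015) lost it.

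Scaling moved the counts at start sites and at distal sites. With TMM factors from promoter-TSS sites, 6 member start-site sites and 2 distal sites were higher after combined silencing (7.51% and 0.342% of all). Distal sites lower went from 41 to 60, and from 10.6% to 16.2% of all distal sites. Distal sites lower also went from 25 to 48 for ARID1A (5.57% to 9.77% of all) and 20 to 28 for ARID1B (3.66% to 5.82%). They went from 21 to 34 for shARID1A.2 (4.7% to 6.86%) and 23 to 41 for shARID1A.4 (4.33% to 8.49%). For shARID1B.3 they went from 22 to 32 (5.05% to 8.21%) and for shARID1A/B.4.2 from 30 to 63 (7.66% to 15.4%). Start-site sites higher went from 17 to 3 for shARID1A/B.4.2 (38.5% to 8.03% of all) and 7 to 3 for shARID1A/B.2.3 (13.5% to 6.23%). They went from 8 to 3 for shARID1B.3 (14.6% to 5.28%) and 5 to 1 for shARID1A.4 (19% to 2.43%). For shARID1A.2 they went from 4 to 2 (5.94% to 2.74%) and for ARID1A from 6 to 2 (16.2% to 3.03%). In this scaling 10 sites became 6 between shARID1A.2 and shARID1A.4, and the values of PHF10, ACTL6A, BCL11B, SMARCD1, SMARCD3 and SMARCE1 turned to -0.16, -0.10, -0.16, -0.04, -0.02 and -0.02. With abundance-trended offsets, 12 start-site sites were higher and 4 lower (25.3% and 5.53% of all). There ARID1B, BRD9 and SS18 lost their start-site calls. The values of ARID2, PHF10, ACTL6A, BCL11A and BCL11B turned to -0.05, -0.17, -0.19, -0.10 and -0.19, with ACTL6A and BCL11B called lower. The cause was not tested.

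Requiring an absolute log2 change of at least 1 left 0 start-site sites higher and 0 lower and 1 distal site higher and 14 lower after combined silencing. It left 5 sites for ARID1A, 6 for ARID1B, 1 for combinations against single shRNAs, 2 for ARID1A against ARID1B, 4 for shARID1A.2, 5 for shARID1A.4, 3 for shARID1B.2, 12 for shARID1B.3, 22 for shARID1A/B.2.3 and 14 for shARID1A/B.4.2. It left 1, 9 and 3 between the ARID1A shRNAs, the ARID1B shRNAs and the combinations. An FDR under 0.05 gave 60 sites for ARID1A, 46 for ARID1B, 33 for ARID1A against ARID1B, 50 for shARID1A.2, 59 for shARID1A.4, 24 for shARID1B.2, 64 for shARID1B.3, 44 between the ARID1B shRNAs and 41 between the combinations. DESeq2 gave 13 for ARID1A against ARID1B, with 4 distal sites higher and 9 lower (0.708% and 2.92% of all distal sites). Between the ARID1A shRNAs it gave 6. These were 1 start-site site lower (3.75% of all) and 3 distal sites higher and 2 lower (0.612% and 1.46%). Taking promoter-TSS annotation alone as the start gave 11 start-site sites higher, 1 lower and 14 distal sites higher. Only sites within 100000 bases gave 27 distal sites lower and 21 sites for shARID1A.4, by construction. Shares over all sites are not given for these thresholds and site definitions, or for the fits below that left out 1 library. Those counts therefore do not set the members apart from other sites.

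Leaving out 1 library gave 9 to 17 start-site sites higher, 1 to 2 lower, 3 to 8 distal sites higher and 31 to 41 lower after combined silencing. The lowest counts came without Control replicate 2 (9 start-site sites and 3 distal sites higher) and replicate 3 (1 start-site site lower, 5 distal sites higher), and 4 distal sites were higher without replicate 1. Called sites ranged from 28 to 44 for ARID1A, 17 (without Control replicate 2) to 28 for ARID1B, 18 to 27 for combinations against single shRNAs and 12 to 19 for ARID1A against ARID1B, with 12 without shARID1B.2 replicate 1 and 13 without shARID1A.2 replicate 2 or shARID1A.4 replicate 1. They ranged from 21 to 27 for shARID1A.2, 22 to 30 for shARID1A.4, 7 to 11 for shARID1B.2 (7 without any 1 of its libraries), 28 to 43 for shARID1B.3, 47 to 54 for shARID1A/B.2.3 and 42 to 51 for shARID1A/B.4.2. Between shRNAs they ranged from 3 to 7 for ARID1A (5 and 4 without shARID1A.2 replicates 2 and 3, 4 and 3 without shARID1A.4 replicates 1 and 2), 17 (without shARID1B.2 replicate 3) to 25 for ARID1B, and 9 (without shARID1A/B.2.3 replicate 2 or shARID1A/B.4.2 replicate 1; 10 without shARID1A/B.4.2 replicate 2) to 19 for the combinations.

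Depth limits the weak distal sites: those not called had a median of 1.08 CPM in Control, and a missed threshold there does not show that the site did not change.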
